A study of Bos taurus with 18 samples.

Results

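The data describe *bta-miR-375* and *bta-miR-7*, the microRNAs best known from endocrine cells, in the blood plasma of Japanese Black beef cattle. They are 2 of the 1071 miRNAs in the deposited tables and were chosen by name and function, with their levels already known. Plasma was drawn from 3 steers in late fattening, once each when they were about 20, 25 and 30 months old, and each of the 9 plasma samples was split by a spin-column kit into exosomal (EX) RNA and non-exosomal free-circulating (FC) RNA. The 18 small RNA libraries thus form 6 groups of 3 (EX and FC at each age), and libraries with the same number come from the same steer. All steers lived on 1 farm under 1 feeding system with no treatment named, and no unfattened group is among the samples, so age and time on feed cannot be told apart.

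MiRNAs are short RNAs that, bound to Argonaute proteins, pair through their seed (bases 2 to 8) with messenger RNAs and reduce their output. miR-375 is a leading miRNA of the pancreatic islet and of other endocrine and secretory epithelial cells, and is known for restraining insulin secretion. miR-7 is likewise rich in islets, pituitary and neurons and acts on the mTOR and secretory pathways. Both are found outside cells in plasma, inside vesicles or bound to protein. In bulk plasma, a change in the number of releasing cells and a change in the RNA released per cell cannot be told apart.

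The 2 mature sequences, taken from the deposited count table and shown because the counts rest on reads matching them, share no seed. The seed is in capitals, and each line reads 5′ to 3′.
bta-miR-375: uUUUGUUCguucggcucgcguga
bta-miR-7: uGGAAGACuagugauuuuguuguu
*bta-miR-375* has 23 bases and a GC content of 52.2%, while *bta-miR-7* has 24 bases and a GC content of 33.3%. The median over the 1030 known miRNAs was 47.6%. Bases 2 to 8 of each were shared with 0 other miRNAs in the table, so no family member adds to either seed here. In RefSeq's annotation of assembly ARS-UCD2.0, the hairpin gene MIR375 lies between CRYBA2, a lens crystallin, and CFAP65, a cilia and flagella protein. MIR7-2 lies within HNRNPK, an RNA-binding protein, and MIR7-3 lies between FEM1A and DPP9. Mature reads do not tell the hairpins of *bta-miR-7* apart. To a tolerance of 0.02 counts, its counts were not whole in 9 of the 18 libraries, as happens where reads are shared out between places, whereas those of *bta-miR-375* were whole in all 18.

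Read depth differed between fractions and ages. Total miRNA counts ranged from 991354 to 2778618 per EX library and from 3615234 to 12088735 per FC library. The 30-month FC libraries, at 3615234 to 4871908, were all shallower than the earlier ones, at 6958135 or more. The 30-month EX libraries, at 991354 to 1988408, overlapped the earlier ones, at 1837454 to 2778618. The number of miRNAs with any count was 258 to 296 in EX at 30 months, against 381 to 446 at the earlier ages. A count of 3, taken as the floor, equals 1.08 to 3.03 CPM in an EX library and 0.248 to 0.830 CPM in an FC library. CPM are counts scaled to a common library total. Both miRNAs lay far above it in every library, and both passed the selection of 5 CPM in at least 3 libraries that left 345 miRNAs in EX, 358 in FC and 330 in both.

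*bta-miR-375* was an abundant plasma miRNA. It averaged 2469 ± 1714 CPM in EX (SD, n = 9) and 1956 ± 774 CPM in FC, ranking 54 of 345 and 61 of 358 by mean level. *bta-miR-7* averaged 79.1 ± 55.8 CPM in EX and 105 ± 35.8 CPM in FC, ranking 169 of 345 and 154 of 358. It was thus counted from 52.3 to 271 reads per EX library and from 496 to 1049 per FC library. Since 1 read is 1 miRNA molecule of the library, these CPM need no correction for length, but how well each sequence was ligated and amplified was not tested.

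In EX, *bta-miR-375* stood at 1973, 1241 and 1690 CPM in steers 1, 2 and 3 at 20 months. At 25 months the same steers had 1564, 956 and 881 CPM. At 30 months they had 4812, 3726 and 5376 CPM. All 3 steers were lowest at 25 months and highest at 30 months, and the 30-month values did not overlap those of either earlier age. The group means were 1635 ± 369, 1134 ± 374 and 4638 ± 838 CPM (SD, n = 3). In EX, 13.6% of the 345 miRNAs were likewise higher in all 30-month libraries than in all earlier ones.

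The FC fraction showed a smaller difference. *bta-miR-375* had 1793, 1209 and 1674 CPM in FC at 20 months. It had 2161, 1338 and 1078 CPM at 25 months, and 2773, 2128 and 3453 CPM at 30 months. Each steer was highest at 30 months, but the lowest 30-month value (2128 CPM) lay just under the highest 25-month value (2161 CPM). The means were 1559 ± 309, 1526 ± 566 and 2785 ± 662 CPM (SD, n = 3). Against 20 months alone the FC groups did not overlap, which held for 14.8% of the 358 miRNAs tested.

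*bta-miR-7* was also highest at 30 months, at a far lower level, but was not lowest at 25 months in every steer. In EX it had 43.5, 48.3 and 65.1 CPM in steers 1, 2 and 3 at 20 months. It had 49.8, 57.0 and 21.5 CPM at 25 months, and 136, 199 and 91.4 CPM at 30 months. The 30-month EX values lay above all 6 earlier ones, although steer 3 at 30 months was only 1.40 times its own 20-month value, and 13.6% of the 345 miRNAs were likewise separated. The EX means were 52.3 ± 11.3, 42.7 ± 18.8 and 142 ± 54.0 CPM (SD, n = 3).

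In FC, *bta-miR-7* had 83.3, 74.2 and 84.6 CPM at 20 months. It had 109, 107 and 49.8 CPM at 25 months, and 164, 137 and 135 CPM at 30 months. Its FC groups did not overlap between 30 months and either earlier age, as for 10.3% of the 358 miRNAs. The means were 80.7 ± 5.70, 88.5 ± 33.5 and 145 ± 16.2 CPM (SD, n = 3), so the 25-month spread rested on steer 3.

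**Figure D1:**
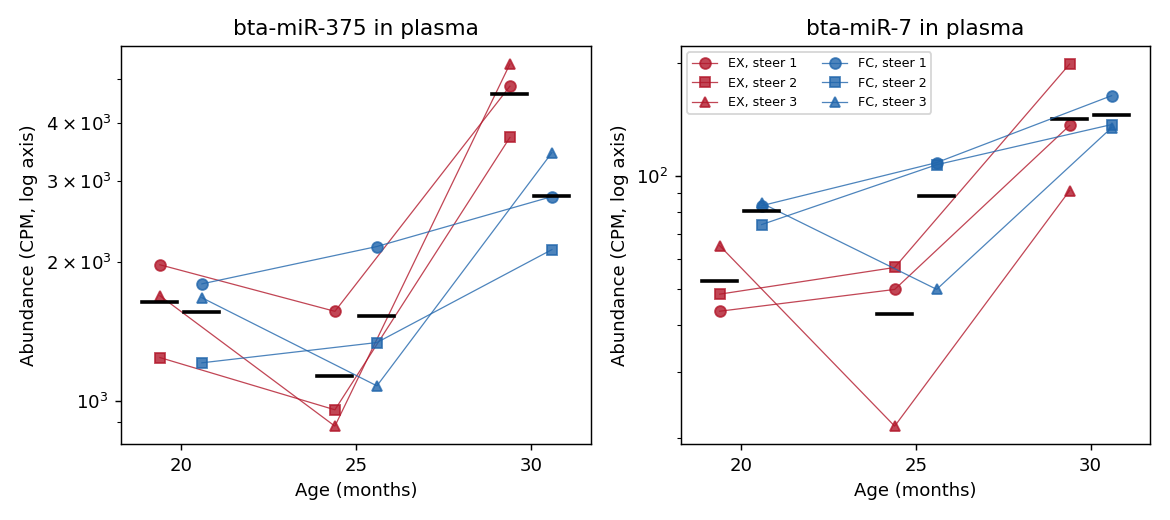
CPM (log axis) of each miRNA by age in months, EX in red and FC in blue, with 1 marker and line per steer and a black bar at each mean of 3 libraries. Every 30-month point lies above the same steer's earlier points, and EX *bta-miR-375* reaches 3726 to 5376 CPM at 30 months.

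Steer 3 at 25 months stood apart. Both miRNAs had their lowest level of the 9 libraries there, in EX and in FC. In the same plasma the summed level of the lymphocyte miRNAs *bta-miR-150* and *bta-miR-342* was the highest of each fraction, at 324692 CPM in EX and 230827 CPM in FC. Because CPM are shares of a library, a rise of these abundant miRNAs lowers the share of all others. Their part in the low values was not tested.

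Ages were compared by edgeR's quasi-likelihood test with steer as a block, and a call needed a false discovery rate (FDR) under 0.05 and an absolute log2 fold change above 1. The levels of the 2 miRNAs in all 18 libraries were known when they were chosen. Every comparison is therefore given for both as fitted values without a test, and the share of all miRNAs called is printed beside it as background only. From 20 to 25 months in EX, the log2 fold change of *bta-miR-375* was −0.43 ± 0.21 (SE), with all 3 steers lower at 25 months. That of *bta-miR-7* was −0.32 ± 0.76 (SE), with 2 of 3 steers higher. Of the 345 EX miRNAs 1 (0.29%) was called, as higher.

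In FC both differences from 20 to 25 months were smaller than their SE. The log2 fold change was 0.07 ± 0.23 (SE) for *bta-miR-375* and 0.19 ± 0.28 (SE) for *bta-miR-7*. In both cases steers 1 and 2 were higher at 25 months and steer 3 was lower. By edgeR 0 of 358 miRNAs (0.0%) were called, 13 had an unadjusted p under 0.05, and DESeq2 also called 0.

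Between 25 and 30 months in EX, *bta-miR-375* was higher in 3 of 3 steers, by 3.08, 3.90 and 6.10 times on the CPM scale. The fitted log2 fold change was 1.60 ± 0.21 (SE). For *bta-miR-7* the steers' CPM ratios were 2.74, 3.49 and 4.26, and the fitted log2 fold change was 1.31 ± 0.75 (SE). Both stood high among the 345 miRNAs, at rank 29 and rank 38 from the highest log2 fold change, where the median miRNA was at −0.51. Of these 345 miRNAs, 14.2% were called, with 3.77% called higher and 10.4% called lower at 30 months. Without the plasma of steer 3 at 25 months the log2 fold changes were 1.47 ± 0.23 for *bta-miR-375* and 1.06 ± 0.95 for *bta-miR-7* (SE), and 25 rather than 49 miRNAs were called.

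Against 20 months the EX differences were somewhat smaller. The log2 fold change of *bta-miR-375* was 1.16 ± 0.21 (SE), with CPM ratios of 2.44 to 3.18 over the steers. For *bta-miR-7* it was 0.99 ± 0.76 (SE), and its CPM ratios spread from 1.40 to 4.12. In this comparison 13.3% of miRNAs were called, 3.48% higher and 9.86% lower, and the median log2 fold change was −0.64. Both 30-month comparisons share the 30-month libraries and are not independent.

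In FC, *bta-miR-375* was higher at 30 than at 25 months in 3 of 3 steers, by 1.28, 1.59 and 3.20 times in CPM. The log2 fold change was 0.78 ± 0.23 (SE). For *bta-miR-7* the CPM ratios were 1.51, 1.28 and 2.70, and the log2 fold change was 0.66 ± 0.28 (SE). The median of the 358 FC miRNAs was −0.20, and 15.6% were called, 5.59% higher and 10.1% lower. Without the plasma of steer 3 at 25 months the log2 fold changes were 0.55 ± 0.21 (SE) for *bta-miR-375* and 0.42 ± 0.28 (SE) for *bta-miR-7*, and 20 rather than 56 miRNAs were called.

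Against 20 months in FC, the log2 fold change of *bta-miR-375* was 0.85 ± 0.23 (SE). That of *bta-miR-7* was 0.85 ± 0.28 (SE). All 3 steers were higher at 30 months for both, by 1.55 to 2.06 times and 1.59 to 1.97 times in CPM. Scaled to *bta-miR-93*, the reference miRNA of the study's qPCR, the log2 fold changes were 0.46 and 0.45. The share of FC miRNAs called was 6.98%, with 2.79% called higher and 4.19% lower.

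**Figure D2:**
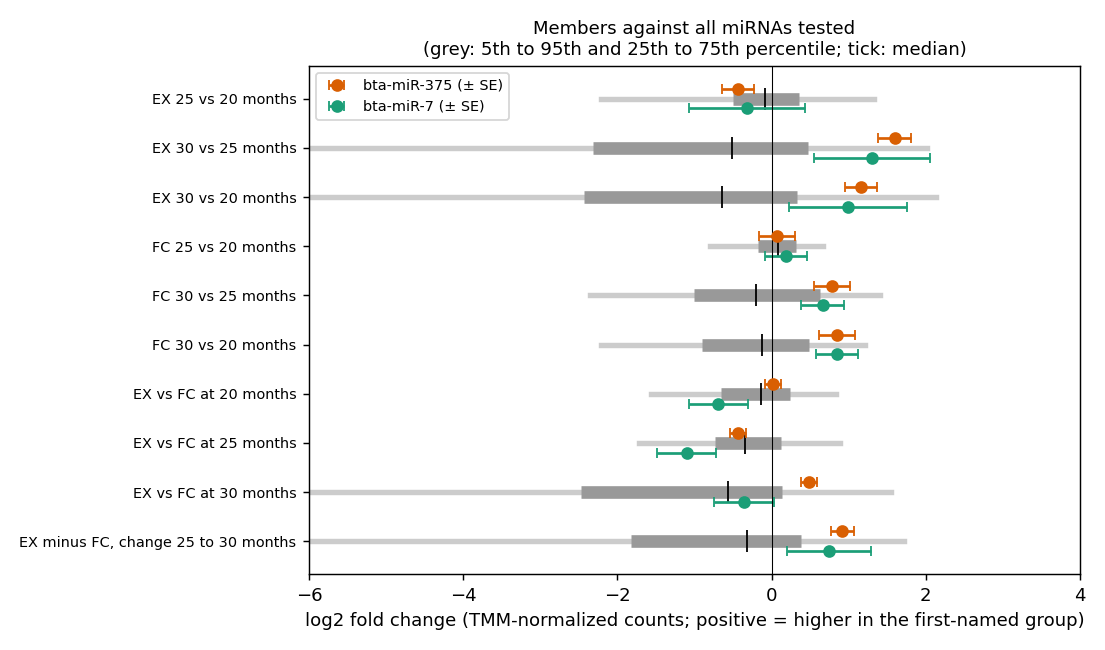
Log2 fold change (points, with SE bars) of both miRNAs in each comparison, over the spread of all miRNAs tested (light bar, 5th to 95th percentile; dark bar, interquartile range; tick, median). In EX 30 vs 25 months the points lie at 1.60 and 1.31 against a median of −0.51, and in FC 25 vs 20 months both lie near 0.

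The size of the 30-month difference depended on the scale. With library totals alone in place of TMM normalization, the EX log2 fold change from 25 to 30 months became 2.06 for *bta-miR-375* and 1.74 for *bta-miR-7*, and the median of all miRNAs moved up by 0.47. Scaled to *bta-miR-93*, the values were 1.28 and 0.98. In FC, the log2 fold changes from 25 to 30 months on this scale were 0.24 and 0.12, against 0.78 and 0.66 with TMM. A scaling moves all miRNAs of a library alike, so the distance from the median miRNA hardly depends on it. This distance was 2.11 for *bta-miR-375* and 1.82 for *bta-miR-7* in EX, and 0.98 and 0.86 in FC.

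*bta-miR-93* itself had a higher mean CPM at 30 months, 20044 ± 5769 in EX against 11388 ± 3259 at 25 months. As a percentage of *bta-miR-93* in the same library, *bta-miR-375* in EX was 13.5 ± 3.98%, 9.92 ± 0.898% and 24.1 ± 6.57% at 20, 25 and 30 months (SD, n = 3). In FC it was 10.7 ± 0.469%, 12.5 ± 2.71% and 14.7 ± 2.61%. EX *bta-miR-7* stood at 0.423 ± 0.0207%, 0.372 ± 0.142% and 0.757 ± 0.411%. FC *bta-miR-7* stood at 0.567 ± 0.0863%, 0.742 ± 0.279% and 0.779 ± 0.134%. On this scale the EX values of *bta-miR-375* at 30 months (18.04 to 31.06%) narrowly overlapped those at 20 months (11.07 to 18.11%) but stayed above those at 25 months (8.88 to 10.5%). For *bta-miR-7* in EX, steers 1 and 3 at 30 months (0.512% and 0.528%) lay just under steer 2 at 25 months (0.529%). In FC not every steer was highest at 30 months on this scale. *bta-miR-375* in steer 1 went from 15.2% at 25 months to 12.2% at 30 months. *bta-miR-7* went from 0.764% to 0.724% in steer 1 and from 1.01% to 0.932% in steer 2.

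The split between fractions was compared within each plasma sample. For *bta-miR-375* at 20 months the ratio of EX to FC CPM was 1.10, 1.03 and 1.01 in steers 1, 2 and 3, with EX slightly above FC in 3 of 3, as for 20.9% of the 330 miRNAs in both fractions. At 25 months the ratio was 0.723, 0.715 and 0.818. At 30 months it was 1.74, 1.75 and 1.56. The ratio was below 1 in 3 of 3 plasma samples at 25 months and above 1 in 3 of 3 at 30 months, and the ages did not overlap. All 30-month ratios lay above all earlier ones for 11.2% of the 330 miRNAs. Of the 330 miRNAs, 35.8% lay below 1 in all 3 samples at 25 months and 22.1% lay above 1 in all 3 at 30 months.

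In the fit with plasma sample as a block, where FDR under 0.05 made a call, the log2 ratio of EX to FC for *bta-miR-375* was 0.02 ± 0.11 (SE) at 20 months, where 9.39% of miRNAs were called, 3.33% as higher and 6.06% as lower in EX. At 25 months the log2 ratio was −0.43 ± 0.11 (SE). The median miRNA was then at −0.34, so *bta-miR-375* lay only 0.09 below it, and 6.97% of miRNAs were called. At 30 months the log2 ratio was 0.49 ± 0.11 (SE). There the median was −0.56, and *bta-miR-375* lay 1.05 above it, while 22.1% of miRNAs were called, 4.85% as higher in EX. Library totals in place of TMM gave 0.75 at 30 months. With 1 steer left out the log2 ratios were −0.41 to −0.19 at 25 months and 0.19 to 0.36 at 30 months. The 30-month values all lie below the 0.49 with all steers, whose own CPM log2 ratios were 0.80, 0.81 and 0.64. Selection and TMM were redone each time, so these ranges also hold that change.

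*bta-miR-7* had fewer CPM in EX than in FC in each plasma sample of the earlier ages. Its EX to FC ratio was 0.523, 0.652 and 0.770 at 20 months. It was 0.458, 0.532 and 0.431 at 25 months, and 0.833, 1.45 and 0.679 at 30 months. All 6 earlier ratios were below 1, as for 29.1% of the 330 miRNAs at 20 months and 35.8% at 25 months, while at 30 months 1 of 3 was above 1. The fitted log2 ratio was −0.69 ± 0.39 at 20 months, −1.10 ± 0.39 at 25 months and −0.36 ± 0.39 at 30 months (SE). The 30-month value was −0.10 with library totals, −0.16 scaled to *bta-miR-93* and −0.77 to −0.31 with 1 steer left out.

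**Figure D3:**
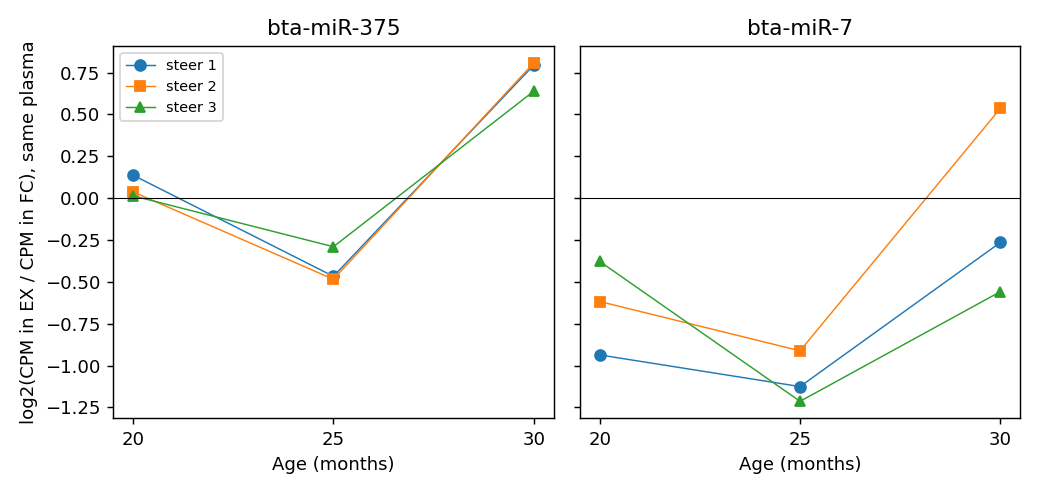
Log2 ratio of EX to FC CPM in the same plasma by age in months, 1 line per steer, with *bta-miR-375* on the left and *bta-miR-7* on the right. For *bta-miR-375* the 3 steers fall to −0.48 to −0.29 at 25 months and reach 0.64 to 0.81 at 30 months.

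The change from 25 to 30 months was also set side by side between fractions, as the interaction of fraction and age in the same fit. The change of *bta-miR-375* was larger in EX than in FC by 0.92 ± 0.15 on the log2 scale (SE). In CPM the steers' log2 differences were 1.26, 1.29 and 0.93. For *bta-miR-7* the fitted difference was 0.74 ± 0.55 (SE), with steers at 0.86, 1.45 and 0.66. Both miRNAs thus changed more in EX in 3 of 3 steers, and the share of the 330 that did so was not counted. The median of the 330 miRNAs was −0.32, and 6.97% were called, 1.21% with a higher log2 change in EX and 5.76% with a lower one. With 1 steer left out the difference was 0.46 to 0.77 for *bta-miR-375* and 0.21 to 0.64 for *bta-miR-7*. All of these lie below the values fitted with all steers, and selection and TMM were again redone.

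Within a library the ratio of *bta-miR-375* to *bta-miR-7* shows how closely the 2 moved together. In FC it averaged 19.2 ± 2.66, 18.01 ± 4.86 and 19.4 ± 5.49 at 20, 25 and 30 months (SD, n = 3). In EX it was higher and more variable, at 32.3 ± 11.3, 29.8 ± 12.2 and 37.6 ± 20.1. EX values ran from 16.8 to 58.8 and FC values from 12.5 to 25.6. In EX, steer 2 had the lowest ratio at every age, at 25.7, 16.8 and 18.7. Steer 3 went from 25.9 to 41.0 and 58.8. Over the 18 libraries, log2 CPM of the 2 miRNAs had a Pearson r of 0.72. The libraries share steers and plasma samples, so this is a description only.

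**Figure D4:**
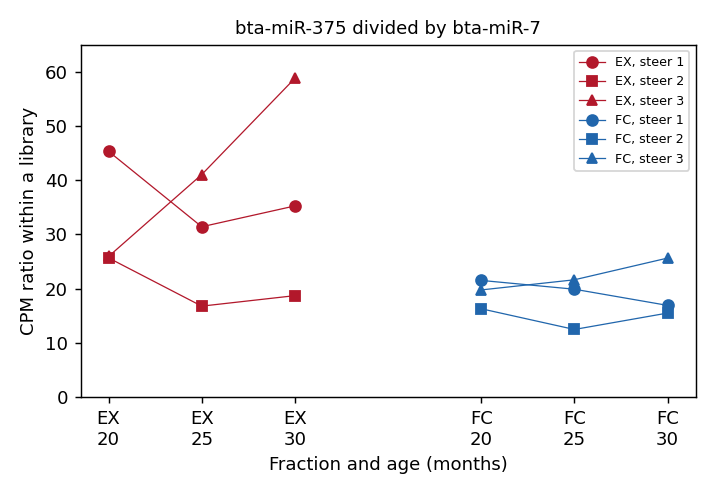
CPM of *bta-miR-375* divided by that of *bta-miR-7* in each library, by fraction and age in months, 1 marker and line per steer. FC values stay between 12.5 and 25.6, and EX values spread from 16.8 to 58.8.

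The miRNAs most like each of them over the 18 libraries were found by the Pearson r of log2 CPM among the 330. For *bta-miR-375* they were *bta-miR-130b* (r = 0.91), *bta-miR-760-3p* (0.89), *bta-miR-130a* (0.88), *bta-miR-210* (0.86) and *bta-miR-6529a* (0.85). *bta-miR-7* came 31st on this list. *bta-miR-210* is the hypoxia-induced miRNA. For *bta-miR-7* they were *bta-miR-199c* (0.93), *bta-miR-199a-3p* (0.92), *bta-miR-192* (0.88), *bta-miR-152* (0.86) and *bta-miR-148a* (0.86). *bta-miR-192* is typical of gut, liver and kidney epithelium. The 2 lists had no miRNA in common.

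Several of these are relatives, which is why their sequences are shown, again with bases 2 to 8 in capitals.
bta-miR-130a: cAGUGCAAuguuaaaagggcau
bta-miR-130b: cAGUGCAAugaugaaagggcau
bta-miR-148a: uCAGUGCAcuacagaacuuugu
bta-miR-152: uCAGUGCAugacagaacuuggg
bta-miR-199a-3p: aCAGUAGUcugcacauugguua
bta-miR-199c: uACAGUAGucugcacauugg
*bta-miR-130a* and *bta-miR-130b* share 1 seed, and so do *bta-miR-148a* and *bta-miR-152*, while *bta-miR-199a-3p* and *bta-miR-199c* differ in where the sequence starts. None of them shares a seed with *bta-miR-375* or *bta-miR-7*. Near relatives can share reads, so these rows are not separate evidence.

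These miRNAs were picked for following a member over the same 18 libraries, so a like pattern was set by the choice. Their levels are given as a description only. The miRNAs closest to *bta-miR-375* were highest in EX at 30 months. *bta-miR-130b* had mean levels of 255, 187 and 1007 CPM in EX at 20, 25 and 30 months, and 309, 253 and 453 CPM in FC. *bta-miR-760-3p* had 135, 112 and 672 CPM in EX and 154, 88.3 and 273 CPM in FC. Those closest to *bta-miR-7*, picked in the same way, were highest at 30 months in both fractions. *bta-miR-199a-3p* had 1894, 2058 and 4359 CPM in EX and 2685, 2664 and 4107 CPM in FC. *bta-miR-192* had 34212, 35351 and 76170 CPM in EX and 54073, 60264 and 109179 CPM in FC.

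Other miRNAs known from islet and neuroendocrine cells did not form 1 pattern. Of 14 listed, 8 passed the selection in each fraction. From 25 to 30 months in EX, 0 of 8 were called higher and 2 called lower by edgeR, where 3.77% and 10.4% of all 345 were. The 2 were *bta-miR-132*, an activity-induced neuronal miRNA, and *bta-miR-184*, known from brain and islet. *bta-miR-132* had 32.0, 71.8 and 71.0 CPM in EX at 25 months, and *bta-miR-184* had 705, 180 and 125 CPM. Both were listed at 0 in all 3 EX libraries at 30 months, where 3 counts equal 1.51 to 3.03 CPM. In FC at 30 months *bta-miR-132* had 16.01, 0 and 51.01 CPM and *bta-miR-184* had 0, 5.81 and 28.7 CPM. A listed 0 need not mean that the miRNA was absent, and this was not tested. A far more abundant miRNA, *bta-miR-194* of the gut list, was listed at 0 in 7 of 9 EX libraries and at 5472 and 5793 CPM in the other two. Its namesake *bta-miR-194b* was listed at 0 in those 2 EX libraries and at 126 to 369 CPM in the 7 where *bta-miR-194* was at 0. No EX library thus held both, and the levels of these rows in EX are uncertain. The cause was not tested.

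*bta-miR-9-3p* was also at 0 in EX at 30 months but had only 6.59 CPM before and was not called. The median log2 fold change of the 8 was −3.22 as fitted, against −0.51 for all 345 miRNAs. It rests on *bta-miR-204* (−3.83 ± 2.62) and *bta-miR-129-5p* (−2.60 ± 2.72), both with a wide SE. Their EX means went only from 92.8 to 54.8 CPM and from 6.96 to 5.54 CPM. With the 3 miRNAs at 0 set to the floor of 3 counts, the median was −2.02. Those 3 values are CPM ratios and the others TMM fits, so −2.02 mixes 2 scales. *bta-miR-9-5p*, a neuronal and islet miRNA, had EX means of 10.8, 24.0 and 164 CPM at the 3 ages. From 25 to 30 months its log2 fold change was 2.29 and was not called (FDR 0.137). From 20 to 30 months it was 3.58 ± 0.97 (SE, FDR 0.0457), the 1 of 8 called higher, and the same 2 as before were called lower, where 3.48% and 9.86% of all EX miRNAs were.

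In FC, 2 of 8 were called higher from 25 to 30 months and 0 lower, where 5.59% and 10.1% of all 358 were. *bta-miR-182* went from 23.5 to 74.0 CPM (log2 fold change 1.54 ± 0.44 (SE), FDR 0.0420) and *bta-miR-183*, of the same sensory and neuroendocrine cluster, from 17.9 to 50.9 CPM (1.43 ± 0.43 (SE), FDR 0.0489). The list's FC median was 0.96, against −0.20 for all 358. From 20 to 30 months in FC, 0 of 8 were called by edgeR, where 6.98% of all 358 were called, 2.79% higher and 4.19% lower.

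**Figure D5:**
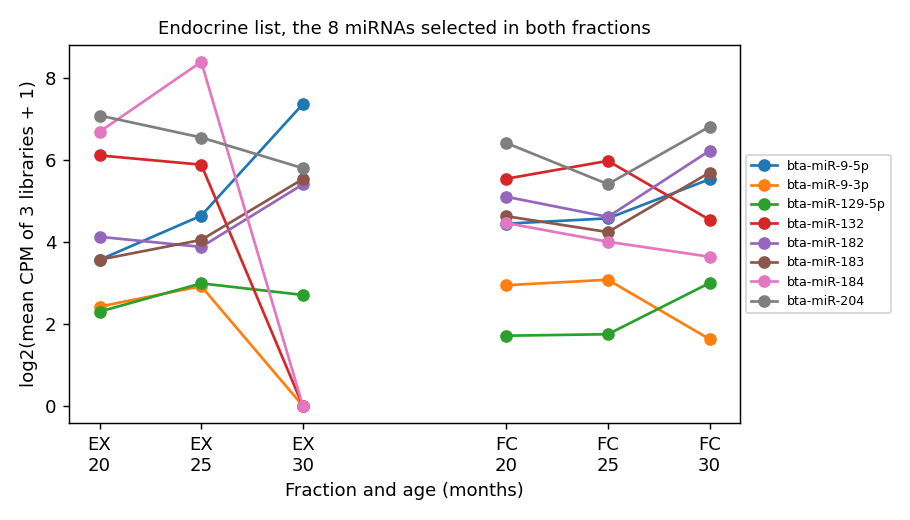
Mean level of the 8 endocrine-list miRNAs selected in both fractions, as log2 of mean CPM plus 1, by fraction and age in months (3 libraries each). At 30 months in EX *bta-miR-132* and *bta-miR-184* are listed at 0 while *bta-miR-9-5p* reaches 164 CPM.

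Between fractions the endocrine list also split. At 25 months *bta-miR-184* was higher in EX (mean 336 CPM) than in FC (15.1 CPM), with a log2 ratio of 4.03 ± 0.67 (SE, FDR 0.00895), a call made in this direction for 2.12% of the 330 miRNAs. At 30 months *bta-miR-132* and *bta-miR-184* were called lower in EX, where both were listed at 0, than in FC, where they averaged 22.3 and 11.5 CPM, and 17.3% of miRNAs were called lower in EX. The same 2 were called in the interaction, with a lower log2 change in EX, as for 5.76% of miRNAs. At 20 months 0 of 8 were called by edgeR, where 9.39% of the 330 were.

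miRNAs of gut and other epithelium, which also make miR-375, were called higher at 30 months in part. Of 10 listed, 9 passed the selection in each fraction. The 9 differ between fractions, since *bta-miR-194* entered in FC alone and *bta-miR-194b*, at EX means of 80.5, 301 and 146 CPM, in EX alone. From 25 to 30 months in FC 2 of 9 were called higher, *bta-miR-141* (log2 fold change 1.11 ± 0.27 (SE), FDR 0.0275) and *bta-miR-194* (1.11 ± 0.26 (SE), FDR 0.0261). *bta-miR-31* was called lower (−2.30 ± 0.52 (SE), FDR 0.0254). Of all 358 miRNAs 5.59% were called higher and 10.1% lower. In EX 0 of 9 were called higher and *bta-miR-31* was called lower (−2.18 ± 0.53 (SE), FDR 0.0299), against 3.77% and 10.4% of all 345. The list's medians were 0.63 in EX and 0.83 in FC, against −0.51 and −0.20 for all miRNAs. From 20 to 30 months in FC 3 of 9 were called higher and 0 lower, with *bta-miR-200a* as the third, against 2.79% and 4.19% of all 358, and in EX 0 of 9 were called by edgeR, against 13.3% of all 345.

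The summed level of the gut and epithelial list was 29216 to 65583 CPM in EX at the earlier ages and 86400 to 115197 CPM at 30 months. In FC it was 46324 to 116970 CPM and then 138533 to 195409 CPM. It was thus higher at 30 months in both fractions with no overlap, as were 13.6% of single miRNAs in EX and 10.3% in FC. Most of the sum was *bta-miR-192*, at 76170 and 109179 CPM at 30 months, which was not called from 25 to 30 months in EX (FDR 0.145 by edgeR) or in FC (FDR 0.0593). The sum was lowest in steer 3 at 25 months, as both endocrine miRNAs were. Its part in their levels was not tested. Between fractions 0 of the 8 list miRNAs in both were called higher in EX at any age by edgeR, where 3.33%, 2.12% and 4.85% of all 330 were at 20, 25 and 30 months. Those called lower in EX were *bta-miR-192* and *bta-miR-215* at all 3 ages, with log2 ratios of −0.72 to −1.05, and also *bta-miR-141* at 30 months (−0.59 ± 0.12 (SE), FDR 0.00743). Of all 330 miRNAs 6.06%, 4.85% and 17.3% were called lower in EX at the 3 ages.

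Markers of blood cells and other tissues did not change alike. Of their sums in EX, only that of the lymphocyte list did not overlap between 30 months and the earlier ages. The lymphocyte sum was 113415 to 324692 CPM in EX at the earlier ages and 13723 to 27464 CPM at 30 months. Both of its miRNAs were called lower in EX and in FC from 25 to 30 months. So were 10.4% of all miRNAs in EX and 10.1% in FC. At 20 months alone, *bta-miR-150* (0.91, FDR 0.00735) and *bta-miR-342* (1.07, FDR 0.00792) were called higher in EX than in FC, against 3.33%. The red cell sum overlapped between ages, at 25390 to 92244 CPM in EX before 30 months and 34776 to 54074 CPM at 30 months. Of its miRNAs, *bta-miR-451* was called lower in EX from 25 to 30 months. Between fractions it was called higher in EX at 20 months alone (1.09 ± 0.23 (SE), FDR 0.0172), against 3.33% of miRNAs. *bta-miR-144* was lower in EX from 25 to 30 months but not called (−1.76 ± 0.57 (SE), FDR 0.0767). *bta-miR-486*, at EX means of 29453 and 38561 CPM, was not called either (log2 fold change −0.04). *bta-miR-486* was called higher in EX than in FC at all 3 ages, with log2 ratios of 0.63, 0.78 and 0.48, against 3.33%, 2.12% and 4.85% of the 330 miRNAs. The hepatocyte sum was 12268 to 95293 CPM and then 35472 to 108600 CPM in EX. *bta-miR-122*, its abundant member, went from a mean of 35159 CPM at 25 months to 81493 CPM in EX, and its log2 fold changes of 1.04 in EX and 0.72 in FC were not called. *bta-miR-885* was called lower in FC from 25 to 30 months, as were 10.1% of miRNAs. Its 30-month FC mean of 0.175 CPM lies under the floor. At 30 months it was called higher in EX than in FC (6.10 ± 1.48 (SE), FDR 0.0258), against 4.85%. *bta-miR-122* was called lower in EX than in FC at 20 months (−0.58 ± 0.14 (SE), FDR 0.0384), against 6.06%. The myeloid and platelet miRNA *bta-miR-223* was at 9652 to 50282 CPM and then 25337 to 29918 CPM in EX. It was called lower in EX than in FC at all 3 ages, with log2 ratios of −0.55, −0.43 and −1.21, against 6.06%, 4.85% and 17.3% of miRNAs, and in the interaction (−0.78 ± 0.14 (SE), FDR 0.0156), against 5.76%. The vessel wall sum was 6144 to 24181 CPM and then 18148 to 30970 CPM in EX. Its *bta-miR-126-3p* was called higher in EX from 20 to 30 months (1.36 ± 0.28 (SE), FDR 0.0149), against 3.48% of miRNAs, and higher in EX than in FC at 30 months (1.18 ± 0.29 (SE), FDR 0.0167), against 4.85%. The other member, *bta-miR-126-5p*, was called lower in EX than in FC at 20 months (−0.53 ± 0.13 (SE), FDR 0.0397) and at 30 months (−0.62 ± 0.13 (SE), FDR 0.0100), against 6.06% and 17.3%. Apart from *bta-miR-885*, at 0 in 2 EX and 2 FC libraries, none of the miRNAs of these 5 lists was at 0 in any library. The part of any in the levels of *bta-miR-375* and *bta-miR-7* was not tested.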

How the data were processed

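EX and FC RNA of 9 plasma samples from 3 steers were sequenced as 18 small RNA libraries. The authors trimmed reads with Cutadapt 5.0 and Trimmomatic 0.39, mapped them to a Japanese Black genome built on the ARS-UCD1.2 reference, and counted miRBase miRNAs with miRDeep2. They deposited expected counts per miRNA, which need not be whole, and CPM made from these counts. The CPM table has a total row, which was left out.

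In 4 FC libraries part of the deposited count column, *bta-miR-7* included, was displaced by 1 row against the CPM table. Counts were recomputed from the CPM there (tolerance 0.001 relative or 0.02 counts). Counts were rounded, filtered (CPM > 5 in at least 3 of 9 libraries of a fraction), TMM-normalized and fitted with edgeR 4.0.16 (R 4.3.3, limma 3.58.1), by glmQLFTest with Benjamini-Hochberg adjustment, with steer as a block between ages and plasma sample as a block between fractions. SE is the log2 fold change over the root of F. A call between fractions or in the interaction needed FDR under 0.05. For the 2 miRNAs, whose levels were known when they were chosen, all comparisons are given without a test. DESeq2 1.42.0 was an alternative. Tables used Python 3.11.15, numpy 2.4.6 and pandas 2.3.3, and the figures matplotlib 3.10.9. The scripts were tested on simulated data.

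Steer identity across ages comes from the study's sampling table. Same-steer libraries of different ages deviated together little in EX (mean r 0.024) and somewhat in FC (0.130). No 2 libraries of a group were copies (18 pairs, chi-square per degree of freedom at least 181). P-values measure the spread between 3 steers, and depth gives counting error only. Named besides the 2 miRNAs are the 5 most correlated with each, endocrine and gut list miRNAs passing a call (at most 6 per comparison) and *bta-miR-93*, the study's qPCR reference. *bta-miR-9-3p*, *bta-miR-129-5p*, *bta-miR-204*, *bta-miR-150*, *bta-miR-342*, *bta-miR-451*, *bta-miR-144*, *bta-miR-885*, *bta-miR-223*, *bta-miR-486*, *bta-miR-122*, *bta-miR-126-3p*, *bta-miR-126-5p* and *bta-miR-194b* were named after their values were seen. Members and lists (endocrine, gut and other epithelium, lymphocyte, red cell, myeloid and platelet, vessel wall, hepatocyte) were chosen with earlier results of these data known. RefSeq coordinates are not given because the assemblies differ.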

Additional observations from a re-analysis of the deposited data

How the results depend on the processing

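Over the 20 log2 fold changes of the 2 miRNAs, 208 alternatives were fitted (steers left out not counted). Of these, 179 moved the value by less than the spread between steers, 23 moved it more and 6 turned the direction. The turns of *bta-miR-7* came with the count rows as deposited, which place another miRNA's counts in its row. The cause of the other moves and turns was not tested.

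With library totals and with *bta-miR-93* scaling, *bta-miR-7* EX 30 vs 25 months was 1.74 and 0.98, *bta-miR-375* EX 30 vs 20 months 1.52 and 0.84, and *bta-miR-375* EX vs FC at 30 months 0.75 and 0.69. Library totals gave 1.16 for the *bta-miR-375* difference between fractions in the change, and *bta-miR-93* scaling gave −0.32 for its EX vs FC at 25 months, where DESeq2 gave −0.30. For its EX vs FC at 20 months they gave 0.29 and 0.10. In FC 30 vs 20 months *bta-miR-93* scaling gave 0.46 for *bta-miR-375* and 0.45 for *bta-miR-7*. A filter of CPM > 1 gave 0.32 for *bta-miR-375* EX vs FC at 30 months and 0.67 for the difference in the change. Chosen after seeing the data, totals without *bta-miR-150* and *bta-miR-342* gave 0.22, −0.31 and 0.75 for *bta-miR-375* EX vs FC at 20, 25 and 30 months, and leaving out the plasma of steer 3 at 25 months gave 0.11 at 20 months, 0.38 at 30 months and −0.91 for *bta-miR-7* at 25 months.

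Directions turned in small differences: *bta-miR-375* FC 25 vs 20 months was −0.039 with library totals, and EX vs FC at 20 months −0.026 with no filter. With the count rows as deposited, which place another miRNA's counts in the row of *bta-miR-7* in 4 FC libraries, its FC log2 fold changes were −0.17 (25 vs 20), −2.74 (30 vs 25) and −2.91 (30 vs 20), EX vs FC was −0.19 at 25 and 3.76 at 30 months, and the difference in the change 3.95.

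Without the replicate block *bta-miR-375* EX vs FC was −0.42 at 25 months, 0.47 at 30 months and 0.89 in the difference in the change. Over all miRNAs, calls between fractions went from 31 to 2 at 20 months and from 23 to 5 at 25 months without the block.

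Selection and TMM were redone with each steer left out, so the ranges hold both changes. Leaving out each steer moved EX vs FC at 20 months to 0.069 to 0.16 for *bta-miR-375* and −0.71 to −0.40 for *bta-miR-7*. *bta-miR-375* EX vs FC moved to −0.41 to −0.19 at 25 months and 0.19 to 0.36 at 30 months. *bta-miR-7* EX vs FC moved to −0.77 to −0.31 at 30 months. The difference in the change moved to 0.46 to 0.77 for *bta-miR-375* and to 0.21 to 0.64 for *bta-miR-7*. *bta-miR-375* FC 25 vs 20 months ranged from −0.11 (without steer 1) to 0.17, and *bta-miR-7* EX 25 vs 20 months from −0.63 to 0.24 (without steer 3). For the 30 vs 25 months difference in EX, *bta-miR-375* ranged from 1.43 to 1.71 and *bta-miR-7* from 1.24 to 1.36.

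Counts of called miRNAs over all alternatives ranged in EX from 0 to 3 (1 as reported; 25 vs 20 months), 1 to 90 (49; 30 vs 25) and 0 to 83 (46; 30 vs 20), and in FC from 10 to 87 (56; 30 vs 25) and 2 to 59 (25; 30 vs 20). Between fractions the ranges were 2 to 54 (31; 20 months), 5 to 43 (23; 25 months) and 58 to 151 (73; 30 months), and in the interaction from 0 to 59 (23). The lowest counts in EX came without steer 3 (1) and steer 1 (0). Depth limits *bta-miR-7* in EX, where the 2 miRNAs had their fewest reads (52.3 to 271 per library), and 3 steers limit all results.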
